A study of Mus musculus with 30 samples.

Results

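The interferon-stimulated genes examined here were 41 genes chosen for the role their products play in interferon responses, out of 43629 genes counted in each library. They were found by symbol through the Ensembl identifiers of the count files. All 41 were present, and all 41 passed the filter on low counts in every comparison. They fell into 32 type I targets (4 genes of signalling and feedback, 3 RNA sensors and 25 effectors), 6 interferon-gamma GTPases, and Irf1 with 2 genes of class I antigen presentation. The mice were wild type C57BL/6J, and RNA came from the heart. In the MI (myocardial infarction) mice the chest was opened under isoflurane, the pericardium was taken off and a coronary artery was tied, whereas sham mice had the whole procedure without the tie. Hearts were taken 2, 4 or 7 days later, which gave 6 groups of 5 libraries each. Every group therefore shared the thoracotomy and the loss of the pericardium, there was no unoperated group, and the labels do not say which portion of the heart was used or how old the mice were. Nor do they say that each library came from its own mouse, so p-values measure the spread between these libraries, which may be technical in part.

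Type I interferons signal through a receptor pair, Ifnar1 and Ifnar2, to a complex with Stat2 and Irf9 that binds the interferon-stimulated response element (ISRE) of antiviral genes. Interferon-gamma signals through Ifngr1 and Ifngr2 to the gamma-activated site (GAS) of its target genes, and is the main inducer of the guanylate-binding and immunity-related GTPases that attack vacuoles of intracellular microbes. Many genes answer to both, and in the infarcted heart the type I programme is known chiefly from infiltrating myeloid cells that sense nucleic acids of dying cells.

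The element that the type I complex binds can be read in the promoters of the genes whose values follow, so 60 bases are shown for each of 4 type I targets, 3 GTPases and Irf1, from RefSeq (GRCm38.p6) on the strand of the gene. Positions count from the RefSeq start, with the base before it as -1. Capitals mark matches of 10 letters to an ISRE core (GAAA, any 2 bases and GAAA again, or TTTC, any 2 bases and TTTC where it lies on the other strand) and matches of 9 letters to a GAS core, TTCNNNGAA, which reads alike on both strands.
Isg15 (chr4:156200859-156200918, minus strand): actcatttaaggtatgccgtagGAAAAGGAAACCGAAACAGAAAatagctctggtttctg
Ifit1 (chr19:34640764-34640823, plus strand): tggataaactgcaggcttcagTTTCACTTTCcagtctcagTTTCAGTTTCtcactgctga
Ifit3 (chr19:34583359-34583418, plus strand): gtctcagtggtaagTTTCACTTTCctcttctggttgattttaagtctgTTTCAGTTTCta
Oas3 (chr5:120777700-120777759, minus strand): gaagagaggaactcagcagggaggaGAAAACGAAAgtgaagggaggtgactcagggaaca
Gbp2 (chr3:142620573-142620632, plus strand): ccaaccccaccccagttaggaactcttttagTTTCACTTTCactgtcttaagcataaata
Igtp (chr11:58199481-58199540, plus strand): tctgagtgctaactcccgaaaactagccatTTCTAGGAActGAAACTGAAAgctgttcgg
Irgm1 (chr11:48871422-48871481, minus strand): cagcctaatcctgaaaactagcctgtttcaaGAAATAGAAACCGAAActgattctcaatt
Irf1 (chr11:53769899-53769958, plus strand): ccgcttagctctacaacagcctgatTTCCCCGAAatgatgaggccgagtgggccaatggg

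The capitals of Isg15 are 3 overlapping ISRE cores between -78 and -57, and those of Irgm1 are 2 overlapping ones between -30 and -15. Ifit1 and Ifit3 hold 2 separate ISRE cores each, while Oas3 and Gbp2 hold 1. Igtp carries a GAS core from -45 to -37 beside an ISRE core from -34 to -25. The capitals of Irf1 are a GAS core from -90 to -82. Over the 300-base windows (250 before the start and 50 after), 31 of the 41 members had an entry, and 20 of these held an ISRE core, against 3.99% of 27025 genes. The core was found in 14 of 23 type I targets, in 5 of 5 GTPases (Gbp2, Gbp3, Gbp7, Igtp and Irgm1) and in B2m alone among Irf1, Tap1 and B2m. A GAS core was present in 9 of 31 members against 9.55% of all genes, and the 2 motifs overlapped in Bst2 and Ifitm3. The ISRE letters were thus found in both type I targets and GTPases. A match is a description of letters, and its absence says only that these letters are not in this window. Usp18, Dhx58, Mx1, Mx2, Oas2, Rtp4, Zbp1, Ifi27l2a, Parp14 and Iigp1 are named only.

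Total counts per library ran from 7841930 to 14070017, with 18668 to 20905 genes detected. A library with no count for a gene allows up to 0.213 to 0.383 CPM (counts brought to the same total in each library), taking 3 counts as the limit and covering counting error only. The cardiomyocyte markers (Myh6, Tnnt2, Actc1, Ryr2, Tnni3) summed to at least 21949 CPM in every library, so defining transcripts of heart muscle were present throughout. There were 6 libraries with at least 50 CPM of the lung transcripts Sftpc and Scgb1a1: sham day 4 replicates 2 and 3, sham day 7 replicates 1, 2 and 3, and MI day 7 replicate 2. The fast skeletal muscle transcripts Myh1, Mylpf and Actn3 summed to 698 normalised CPM in MI day 7 replicate 4 and to at most 2.53 in any other library. Most values of single genes, pathway lists and cell markers below rest on all libraries. Because of the lung transcripts, counts of members called higher at days 4 and 7 are also given without the 6 lung-bearing libraries. That setting keeps replicates 1, 4 and 5 of sham day 4 and replicates 4 and 5 of sham day 7. Of MI day 7 it keeps replicates 1, 3, 4 and 5. A call lost in that setting cannot be told apart from the loss of libraries. In the sample descriptions, libraries of day 2 carry another leading code than those of days 4 and 7, so any difference between day 2 and a later day cannot be told apart from this code.

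After myocardial infarction, 9, 19 and 26 of the 32 type I targets were higher than in sham hearts at days 2, 4 and 7, while at most 1 of the 6 GTPases was. By edgeR's quasi-likelihood test over all genes, with an adjusted p under 0.05 as the threshold, 9 of 41 members were higher and 1 was lower in MI at day 2, where 24.1% of 14524 genes tested were higher and 22.2% lower. At day 4, 22 members were higher and 1 lower, against 27.5% and 25.2% of 14410 genes. At day 7, 29 members were higher and 0 lower, against 28.4% and 26.6% of 14492 genes. No member was lower at an unadjusted p under 0.05 at day 7 either, or by DESeq2. The share of members called higher, 9 of 41, was near the background at day 2, and it lay above the background at days 4 and 7. The median log2 fold change of all 41 members was 0.16 at day 2, 0.51 at day 4 and 0.69 at day 7, against -0.01, 0.01 and 0.01 for all genes tested. With library totals in place of TMM factors, all genes split into 4375 higher and 2348 lower at day 2, in place of 3498 and 3225. The split was 5569 and 2253 at day 4, in place of 3968 and 3629, and 5768 and 2428 at day 7, in place of 4119 and 3857. Members called higher then numbered 15, 31 and 32. These are bulk libraries, in which fewer cells of a type and less RNA per cell cannot be told apart.

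Calls held under every alternative processing and with each library left out for all 9 members at day 2, for 13 of 22 at day 4 and for 21 of 29 at day 7. At day 4 the calls of Irf7, Ddx58, Ifit2, Oas2, Oasl2, Rtp4, Xaf1, Irgm1 and Tap1 were lost under at least 1 of them, and at day 7 those of Irf7, Usp18, Ifit1, Mx2, Oas2, Xaf1, Parp14 and Eif2ak2. Without the lung-bearing libraries, 23 members were higher at day 4 and 21 at day 7. Each of the 8 calls lost at day 7 was lost in that setting. At day 7 all genes called higher also fell in that setting, from 4119 to 3060. Members that edgeR did not call crossed the threshold under other settings as well. Stat2 at day 4 was called by DESeq2 (adjusted p = 0.0485), with the replicate block, in the fit of all 30 libraries, with library totals and without the lung-bearing libraries, where its log2 fold change was 0.61 (edgeR adjusted p = 0.0272). Without the lung-bearing libraries Zbp1, Ifi27l2a and Ifi35 were higher at day 4 too. DESeq2 called Ifit3b (adjusted p = 0.0467) and Ifi27l2a (adjusted p = 0.0448) higher at day 7, which made 31 members by that tool. Without MI day 4 replicate 4, Stat2, Ifih1, Ifit1, Ifit3, Mx2 and Parp14 were all called higher at day 4, and 32 members in all.

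**Figure D1:**
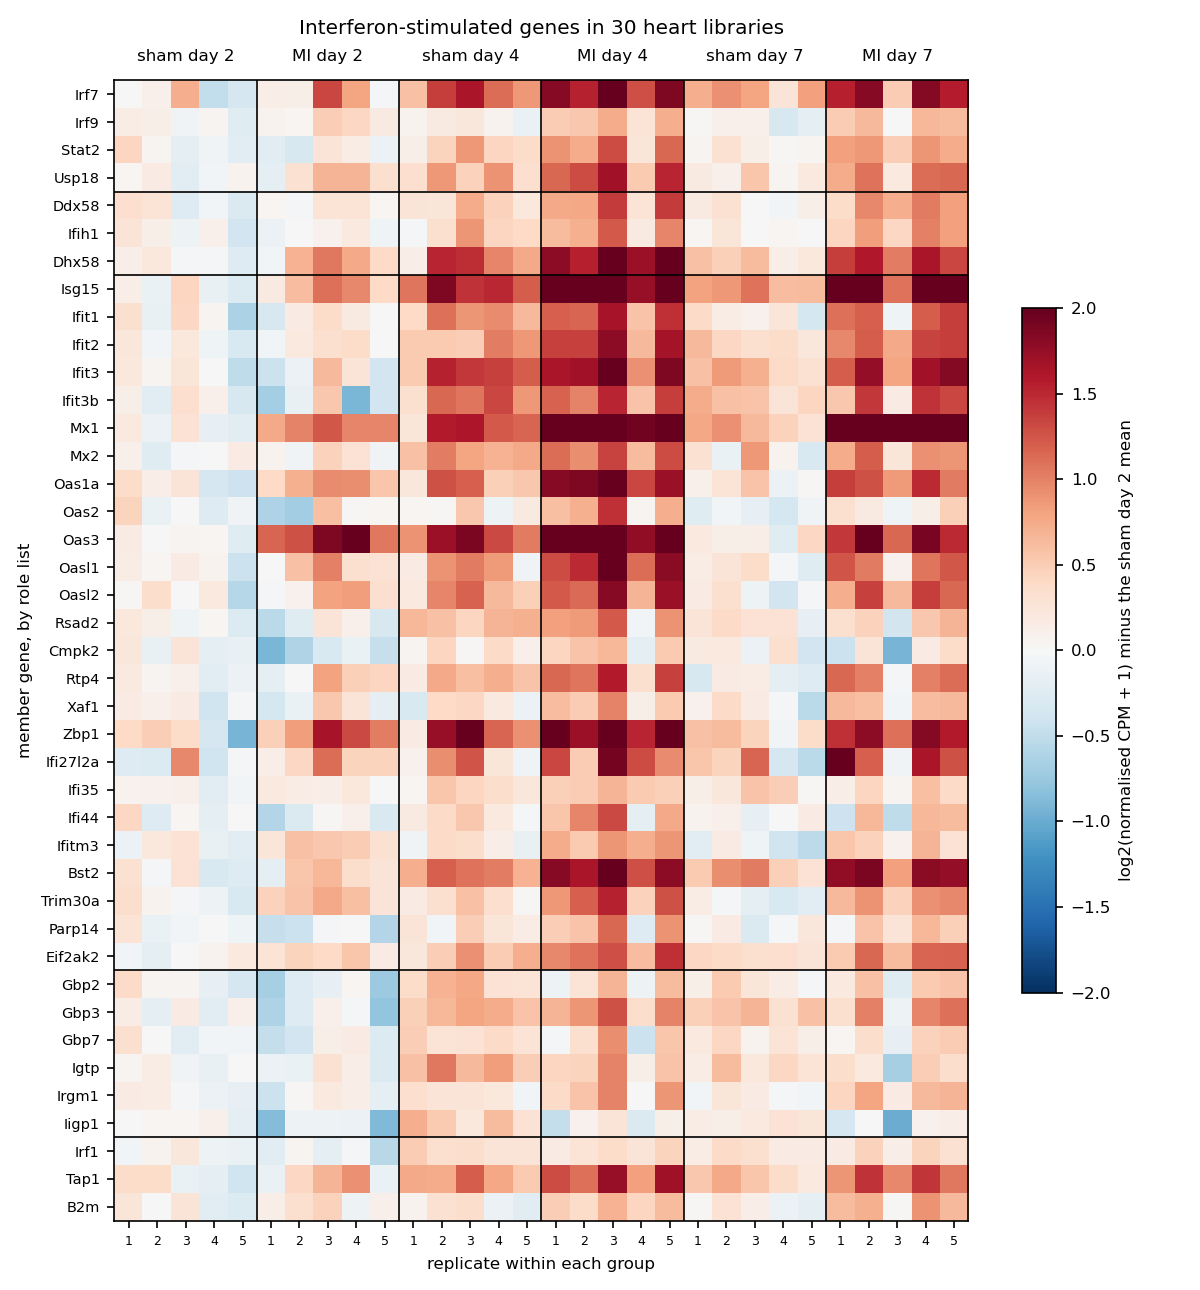
Level of each of the 41 members (rows, by role list) in each of the 30 libraries (columns, by group and replicate), as log2(normalised CPM + 1) minus the mean of the 5 sham day 2 libraries. Red is above and blue below that mean, with the colour scale ending at -2 and 2. Most type I targets are red in MI hearts of days 4 and 7, palest in MI day 4 replicate 4 and MI day 7 replicate 3.

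By edgeR with all libraries, 8 of the 41 members were higher at all 3 days (Dhx58, Isg15, Mx1, Oas1a, Oas3, Ifitm3, Trim30a and Eif2ak2). Another 14 were higher at days 4 and 7 only: Irf7, Irf9, Usp18, Ddx58, Ifit2, Oas2, Oasl1, Oasl2, Rtp4, Xaf1, Bst2, Irgm1, Tap1 and B2m. Day 7 alone added 6 (Stat2, Ifih1, Ifit1, Ifit3, Mx2 and Parp14), and Zbp1 was higher at days 2 and 7. The remaining 12 were called higher at no day by edgeR: Ifit3b, Rsad2, Cmpk2, Ifi27l2a, Ifi35, Ifi44, Gbp2, Gbp3, Gbp7, Igtp, Iigp1 and Irf1. Every member's groups overlapped at day 2 save 3, against 15.9% of all genes tested that lay wholly higher in MI. Those 3 were Mx1, Oas1a and Oas3, and 8 members lay wholly higher at day 4 (20.5% of genes) and 13 at day 7 (20.0%). None lay wholly lower, where 13.9%, 16.4% and 20.6% of genes did at days 2, 4 and 7.

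**Figure D2:**
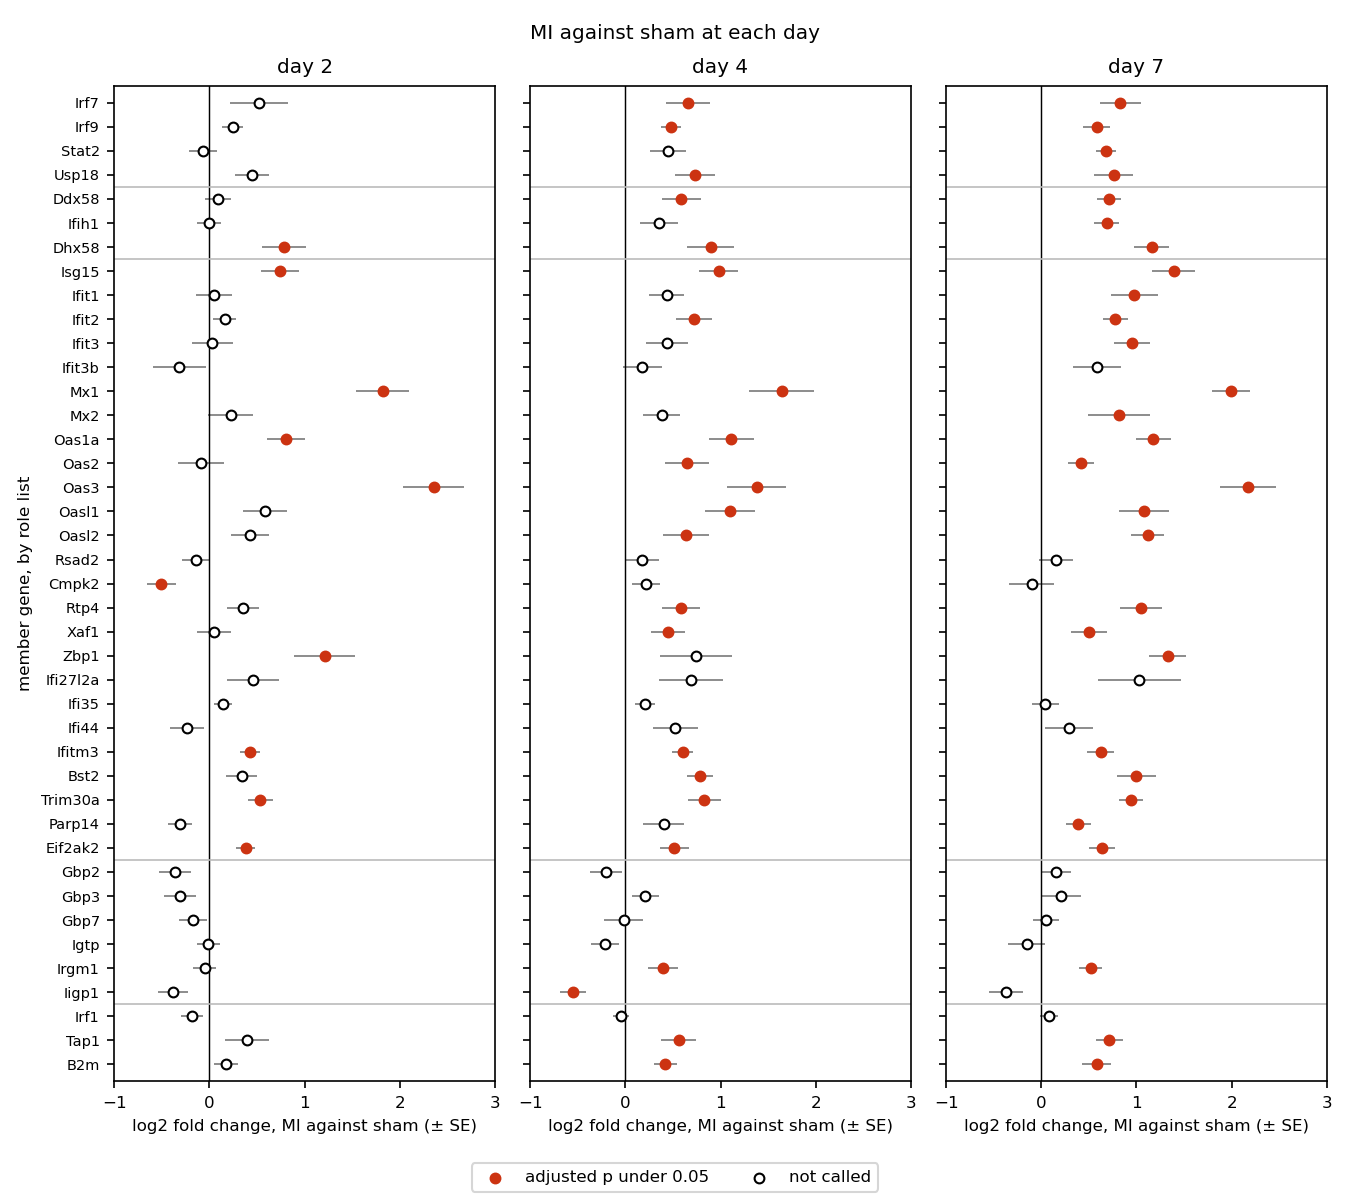
Log2 fold change of MI against sham (horizontal axis, bars ± SE) for each of the 41 members at days 2, 4 and 7, with 5 libraries per group. Filled points passed an adjusted p of 0.05. Filled points number 10, 23 and 29 in the panels of days 2, 4 and 7, and among the GTPases only those of Irgm1 at days 4 and 7 and of Iigp1 at day 4 are filled.

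Of the 4 signalling and feedback genes, 3 were higher in MI at day 4 (Irf7, Irf9 and Usp18) and 4 at day 7, against 27.5% and 28.4% of all genes. Levels are given below as normalised CPM, which is CPM with the library total multiplied by its TMM factor, for replicates 1 to 5 in order. Irf7, the transcription factor that amplifies type I interferon production, measured 19.9, 21.1, 33.4, 13.7 and 15.4 in sham and 21.8, 21.5, 51.2, 34.7 and 19.5 in MI hearts at day 2. At day 4, Irf7 measured 30.2, 53.4, 63.5, 44.1 and 36.99 in sham and 72.3, 59.01, 107, 49.9 and 74.9 in MI hearts. At day 7, Irf7 measured 33.1, 38.3, 34.8, 23.8 and 35.6 in sham and 59.9, 72, 28.5, 73.1 and 60.7 in MI hearts. The groups overlapped at every day, at day 7 through MI replicate 3 alone, which lay within the sham range. For Irf7, the log2 fold change was 0.52 ± 0.31 (SE, edgeR adjusted p = 0.189), 0.65 ± 0.23 (adjusted p = 0.0338) and 0.83 ± 0.22 (adjusted p = 0.00614) at days 2, 4 and 7.

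Irf9 is the DNA-binding subunit of the type I complex. At day 2, Irf9 measured 27.1, 26.5, 23.2, 25.5 and 20.4 in sham and 25.7, 25.2, 34.8, 32.7 and 27.9 in MI hearts. At day 4, Irf9 measured 25.8, 27.7, 28.8, 25.6 and 22.1 in sham and 35.3, 36.1, 41.3, 29.7 and 41.05 in MI hearts. Every MI library of day 4 lay above every sham library. At day 7, Irf9 measured 24.9, 26.4, 26.1, 19.3 and 21.3 in sham and 35.3, 38.7, 24.7, 39.1 and 38.5 in MI hearts, where MI replicate 3 alone overlapped the sham range. For Irf9, the log2 fold change was 0.24 ± 0.11 (SE, edgeR adjusted p = 0.0912), 0.48 ± 0.10 (adjusted p = 0.0012) and 0.58 ± 0.14 (adjusted p = 0.00301) at days 2, 4 and 7.

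Stat2, the subunit that carries the activation domain, measured 27.3, 20.6, 17.3, 18.9 and 16.9 in sham and 16.9, 15.7, 23.9, 22.2 and 18.3 in MI hearts at day 2. At day 4, Stat2 measured 21.7, 27.3, 37.2, 27.02 and 25.8 in sham and 38.04, 34.1, 50.4, 23.8 and 45.1 in MI hearts. At day 7, Stat2 measured 20.6, 24.9, 21.7, 20.2 and 20.6 in sham and 36.05, 37.03, 28.3, 37.5 and 33.98 in MI hearts. Groups overlapped at days 2 and 4, whereas at day 7 all 5 MI libraries lay above all 5 sham libraries. For Stat2, the log2 fold change was -0.07 ± 0.15 (SE, edgeR adjusted p = 0.736), 0.45 ± 0.19 (adjusted p = 0.0624) and 0.68 ± 0.10 (adjusted p = 0.000115), in day order. The day 4 value also passed without sham replicate 3 or without MI replicate 4, at 0.57 to 0.58, besides the settings given above.

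Usp18, which removes ISG15 from proteins and restrains the type I receptor, was higher from day 4. At day 2, Usp18 measured 5.197, 5.800, 4.25, 4.82 and 5.36 in sham and 4.32, 6.47, 8.76, 8.74 and 6.58 in MI hearts. At day 4, Usp18 measured 6.64, 10.03, 7.36, 10.3 and 6.63 in sham and 12.4, 13.9, 18.4, 7.73 and 16.4 in MI hearts. At day 7, Usp18 measured 5.84, 5.497, 7.86, 5.28 and 5.96 in sham and 9.12, 11.9, 5.96, 12.1 and 12.4 in MI hearts. MI replicate 4 at day 4 and MI replicate 3 at day 7 lay within the sham range, and the other MI libraries of those days lay above it. For Usp18, the log2 fold change was 0.45 ± 0.18 (SE, edgeR adjusted p = 0.0553), 0.73 ± 0.21 (adjusted p = 0.00876) and 0.76 ± 0.21 (adjusted p = 0.00673) at the 3 days.

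The RNA sensors Ddx58 (RIG-I) and Ifih1 (MDA5), helicases that detect viral or misplaced RNA in the cytosol, were higher at day 7. At day 2, Ddx58 measured 22.9, 21.8, 14.9, 17.3 and 14.5 in sham and 18.5, 17.4, 21.9, 21.8 and 18.4 in MI hearts. At day 4, Ddx58 measured 21.6, 21.5, 30.7, 25.1 and 20.9 in sham and 31.03, 31.6, 48.8, 21.9 and 48.9 in MI hearts. At day 7, Ddx58 measured 20.6, 22.6, 18.2, 17.3 and 19.5 in sham and 23.4, 35.9, 30.3, 38.1 and 32.5 in MI hearts. The ranges overlapped at days 2 and 4 and were separate at day 7. For Ddx58, the log2 fold change was 0.09 ± 0.14 (SE, edgeR adjusted p = 0.624), 0.59 ± 0.21 (adjusted p = 0.0293) and 0.71 ± 0.13 (adjusted p = 0.000399), in day order.

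Ifih1 gave levels of 18, 16.4, 13.9, 16.1 and 11.3 in sham and 13.7, 15.1, 15.9, 17.3 and 14.04 in MI hearts at day 2. At day 4, Ifih1 measured 14.6, 19.01, 28.4, 20.5 and 20.01 in sham and 23.6, 25.2, 36.4, 17.1 and 30.3 in MI hearts. At day 7, Ifih1 measured 15.3, 17.95, 15.04, 15.3 and 14.9 in sham and 20.5, 27.5, 20.2, 31.1 and 27.2 in MI hearts. Only the ranges of day 7 were separate. For Ifih1, the log2 fold change was -0.00 ± 0.13 (SE, edgeR adjusted p = 0.999), 0.35 ± 0.20 (adjusted p = 0.154) and 0.69 ± 0.13 (adjusted p = 0.000602) in day order. Dhx58 (LGP2), the third helicase of the family, which modulates the other two, was higher at each day, by 0.78 ± 0.23 (SE, edgeR adjusted p = 0.0124), 0.90 ± 0.25 (adjusted p = 0.00808) and 1.16 ± 0.18 (adjusted p = 0.000147).

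Among the 25 effectors, 8 were higher and 1 was lower at day 2, 14 were higher at day 4 and 19 at day 7. Over all genes tested, 24.1%, 27.5% and 28.4% were higher at those days, and 22.2% were lower at day 2. Isg15, the ubiquitin-like modifier that gives the response its name, was higher at all 3 days. At day 2, Isg15 measured 7.05, 5.72, 8.97, 5.67 and 5.08 in sham and 7.34, 10.3, 14.9, 13.3 and 8.71 in MI hearts. At day 4, Isg15 measured 14.5, 25.8, 18.99, 19.9 and 16.2 in sham and 41.96, 32.3, 54.5, 23.7 and 37.6 in MI hearts. At day 7, Isg15 measured 11.9, 12.5, 14.7, 10.3 and 10.4 in sham and 32.1, 33.8, 14.7, 39.4 and 36.6 in MI hearts. At each day at least 1 MI library reached into the sham range, which at days 4 and 7 was replicate 4 and replicate 3. For Isg15, the log2 fold change was 0.74 ± 0.20 (SE, edgeR adjusted p = 0.00677), 0.98 ± 0.21 (adjusted p = 0.00173) and 1.39 ± 0.23 (adjusted p = 0.000196), or 1.68-, 1.97- and 2.62-fold.

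The Ifit genes encode proteins that bind foreign RNA ends and block its translation, and they lie side by side on chromosome 19. At day 2, Ifit1 measured 14.7, 10.3, 15.8, 12.01 and 7.05 in sham and 9.05, 13.02, 15.3, 13.2 and 11.5 in MI hearts. At day 4, Ifit1 measured 15.6, 25.8, 22.2, 23.2 and 18.7 in sham and 27.7, 27.2, 38.3, 17.6 and 33.6 in MI hearts. At day 7, Ifit1 measured 15.3, 12.9, 12.3, 13.9 and 8.802 in sham and 26, 27.8, 10.8, 28.1 and 31.7 in MI hearts. At day 7, 4 MI libraries stood above all sham libraries and replicate 3 lay inside the sham range. For Ifit1, the log2 fold change was 0.05 ± 0.19 (SE, edgeR adjusted p = 0.854), 0.44 ± 0.18 (adjusted p = 0.0636) and 0.97 ± 0.25 (adjusted p = 0.00475).

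Ifit3 had levels of 16.1, 14.3, 16.5, 13.96 and 9.41 in sham and 9.95, 12.7, 22.3, 16.7 and 10.4 in MI hearts at day 2. At day 4, Ifit3 measured 20.2, 41.8, 38.4, 37.04 and 33.4 in sham and 44.95, 46.2, 63.1, 26.8 and 52.9 in MI hearts. At day 7, Ifit3 measured 21.2, 25.6, 23.4, 18.2 and 17.3 in sham and 33.5, 48.9, 24.5, 46.2 and 51.8 in MI hearts. The groups overlapped at each day, at day 7 through MI replicate 3. For Ifit3, the log2 fold change was 0.03 ± 0.21 (SE, edgeR adjusted p = 0.926), 0.44 ± 0.22 (adjusted p = 0.123) and 0.95 ± 0.19 (adjusted p = 0.000931). Ifit2 rose at day 4, by 0.72 ± 0.19 (SE, edgeR adjusted p = 0.00604), and at day 7, by 0.78 ± 0.13 (adjusted p = 0.000262). Ifit3b was not called by edgeR at any day, and its largest value, at day 7, was 0.59 ± 0.25 (SE, edgeR adjusted p = 0.0624). DESeq2 called that value (0.58, adjusted p = 0.0467), and so did library totals and leaving out MI day 7 replicate 1 or 3, while without MI day 2 replicate 3 Ifit3b was lower at day 2 (-0.65). The transcripts of Ifit3 and Ifit3b are 97.8% identical over the aligned stretch, so the counts of this pair are uncertain where reads match both.

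The 2'-5'-oligoadenylate synthetases make the messenger that activates RNase L on sensing double-stranded RNA. Oas3 had the highest fold change of all members at days 2 and 7. At day 2, Oas3 measured 1.21, 0.953, 1.04, 1.02 and 0.658 in sham and 3.42, 3.78, 6.197, 8.66 and 3.098 in MI hearts. At day 4, Oas3 measured 2.65, 5.42, 6.21, 3.92 and 3.02 in sham and 10.2, 8.598, 18.3, 5.73 and 13.04 in MI hearts. At day 7, Oas3 measured 1.25, 1.12, 1.16, 0.6601 and 1.63 in sham and 4.25, 8.02, 3.36, 6.29 and 4.52 in MI hearts. MI and sham libraries did not overlap at days 2 and 7, and at day 4 MI replicate 4 lay within the sham range. For Oas3, the log2 fold change was 2.36 ± 0.32 (SE, edgeR adjusted p = 3.43e-05), 1.38 ± 0.31 (adjusted p = 0.00242) and 2.17 ± 0.30 (adjusted p = 4.48e-05), on a low level of 5 to 209 counts per library.

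Oasl2, a synthetase-like protein with ubiquitin-like domains, measured 17.4, 22.2, 17.3, 19.7 and 11.2 in sham and 16.7, 18.2, 30.9, 31.4 and 21.9 in MI hearts at day 2. At day 4, Oasl2 measured 19.9, 34.6, 40.3, 27.6 and 24.2 in sham and 41.4, 38.6, 63.3, 28.1 and 59.2 in MI hearts. At day 7, Oasl2 measured 19.3, 21.7, 15.96, 12.9 and 16.8 in sham and 29.1, 45.9, 27.3, 46.6 and 39.1 in MI hearts. Only at day 7 were all MI libraries above all sham libraries. For Oasl2, the log2 fold change was 0.43 ± 0.20 (SE, edgeR adjusted p = 0.102), 0.64 ± 0.24 (adjusted p = 0.0437) and 1.12 ± 0.17 (adjusted p = 0.000136). Oas1a rose at each day, by 0.81 ± 0.20 (SE, edgeR adjusted p = 0.00374), 1.11 ± 0.23 (adjusted p = 0.00129) and 1.18 ± 0.19 (adjusted p = 0.000152), and its transcript is 97.6% identical to Oas1g. Oasl1 rose at days 4 and 7, by 1.10 ± 0.27 (SE, edgeR adjusted p = 0.00331) and 1.08 ± 0.26 (adjusted p = 0.00363). Its day 2 value was 0.58 (edgeR adjusted p = 0.0526). That value was called higher by DESeq2 (adjusted p = 0.0477), with no filter on low counts, the replicate block or library totals, and without MI replicate 1. Oas2 rose at days 4 and 7, by 0.65 ± 0.23 (SE, edgeR adjusted p = 0.0302) and 0.42 ± 0.13 (adjusted p = 0.016).

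Mx1, a dynamin-like GTPase, had the highest fold change at day 4. Its level was low, with 4 to 10 counts per library in sham hearts of day 2. At day 2, Mx1 measured 0.835, 0.477, 0.944, 0.423 and 0.376 in sham and 1.71, 2.16, 2.78, 2.15 and 2.13 in MI hearts. At day 4, Mx1 measured 0.885, 3.803, 3.91, 2.72 and 2.56 in sham and 10.1, 5.88, 13.4, 5.09 and 9.26 in MI hearts. At day 7, Mx1 measured 1.72, 2.02, 1.504, 1.19 and 0.948 in sham and 5.697, 6.34, 6.34, 5.46 and 6.09 in MI hearts. No MI library overlapped the sham range of its day. For Mx1, the log2 fold change was 1.82 ± 0.28 (SE, edgeR adjusted p = 9.93e-05), 1.64 ± 0.34 (adjusted p = 0.00131) and 1.99 ± 0.20 (adjusted p = 6.76e-06). Its neighbour Mx2 was called at day 7 alone, by 0.82 ± 0.32 (SE, edgeR adjusted p = 0.0458), and part of its transcript is 94.8% identical to Mx1.

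Rsad2 (viperin) and Cmpk2 are neighbours on chromosome 12 whose enzymes together make a chain-terminating nucleotide, and neither was called higher in MI at any day by edgeR with all libraries or by DESeq2. At day 2, Rsad2 measured 31.6, 29.6, 25.5, 27.9 and 22.2 in sham and 18.3, 22.7, 32.7, 29.2 and 21.5 in MI hearts. At day 4, Rsad2 measured 43.8, 41.4, 36.9, 44.1 and 44.9 in sham and 48.5, 49.6, 64.95, 26.2 and 51.5 in MI hearts. At day 7, Rsad2 measured 32.6, 35.7, 33.3, 33.4 and 24.2 in sham and 34.3, 37.96, 20.8, 39.9 and 44.2 in MI hearts. MI libraries lay on both sides of the sham range at days 4 and 7. For Rsad2, the log2 fold change was -0.15 ± 0.15 (SE, edgeR adjusted p = 0.437), 0.17 ± 0.18 (adjusted p = 0.428) and 0.15 ± 0.18 (adjusted p = 0.476). It was called higher at day 4 without MI replicate 4, at 0.33 (edgeR adjusted p = 0.0148), and at day 7 without MI replicate 3, at 0.30 (edgeR adjusted p = 0.0396).

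Cmpk2 was the one member lower in MI at day 2 by edgeR with all libraries. At day 2, Cmpk2 measured 21.6, 16.5, 22.3, 16.1 and 16.5 in sham and 9.25, 11.8, 14.7, 16.7 and 13.2 in MI hearts. At day 4, Cmpk2 measured 19.2, 25.01, 18.6, 24.4 and 19.9 in sham and 25.2, 27.97, 29.7, 15.9 and 26.96 in MI hearts. At day 7, Cmpk2 measured 20.97, 21.3, 16.9, 23.2 and 13.9 in sham and 13.5, 22.3, 9.17, 20.9 and 24.1 in MI hearts. Of the day 2 libraries, 4 of 5 MI values lay below the lowest sham value and replicate 4 within the sham range. For Cmpk2, the log2 fold change was -0.51 ± 0.15 (SE, edgeR adjusted p = 0.0125), 0.22 ± 0.15 (adjusted p = 0.235) and -0.10 ± 0.24 (adjusted p = 0.736). At day 4 it was called higher without MI replicate 4 (0.34, edgeR adjusted p = 0.0168) and with library totals (0.40, edgeR adjusted p = 0.032).

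The other effectors divided as follows. Ifitm3, which blocks fusion of viruses in endosomes, rose at each day, by 0.42 ± 0.11 (SE, edgeR adjusted p = 0.00421), 0.60 ± 0.11 (adjusted p = 0.000464) and 0.62 ± 0.14 (adjusted p = 0.00207). Trim30a, a ubiquitin ligase of the TRIM family, rose by 0.53 ± 0.13 (SE, edgeR adjusted p = 0.00348), 0.83 ± 0.18 (adjusted p = 0.0015) and 0.94 ± 0.13 (adjusted p = 4.22e-05). Eif2ak2 (PKR), the kinase that halts translation on sensing double-stranded RNA, rose by 0.38 ± 0.10 (SE, edgeR adjusted p = 0.00661), 0.51 ± 0.16 (adjusted p = 0.0128) and 0.64 ± 0.14 (adjusted p = 0.0013). Zbp1, a sensor of Z-form nucleic acids that can trigger necroptosis, rose by 1.21 ± 0.32 (SE, edgeR adjusted p = 0.00759) at day 2 and 1.33 ± 0.19 (adjusted p = 7.93e-05) at day 7, with 0.75 ± 0.38 (adjusted p = 0.123) at day 4. Without the lung-bearing libraries Zbp1 was higher at day 4 as well, by 1.42 (edgeR adjusted p = 0.00279), and without sham day 4 replicate 3 alone by 1.08 (edgeR adjusted p = 0.0167).

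Bst2 (tetherin), which holds budding virions at the cell surface, rose by 0.78 ± 0.14 (SE, edgeR adjusted p = 0.000305) at day 4 and 0.998 ± 0.20 (adjusted p = 0.00107) at day 7. Rtp4 rose by 0.58 ± 0.20 (SE, edgeR adjusted p = 0.0273) and 1.05 ± 0.22 (adjusted p = 0.00119), and Xaf1, an apoptosis-promoting protein, by 0.45 ± 0.18 (adjusted p = 0.0471) and 0.50 ± 0.19 (adjusted p = 0.0361). Parp14, an ADP-ribosyltransferase, rose at day 7 by 0.39 ± 0.13 (SE, edgeR adjusted p = 0.0249). At day 2 Parp14 gave -0.31 (edgeR adjusted p = 0.0556). That value was called lower by DESeq2 (-0.32, adjusted p = 0.0461), with median-ratio size factors, with no filter on low counts and with the replicate block. It was also called lower in 3 fits that left out 1 library. Not called by edgeR at any day were Ifi27l2a, at 1.03 ± 0.44 (SE, edgeR adjusted p = 0.0713) on day 7, Ifi44, at 0.29 ± 0.26 (adjusted p = 0.359), and Ifi35, at 0.04 ± 0.14 (adjusted p = 0.829). Ifi27l2a depended on the setting: at day 7 it was higher by DESeq2 (adjusted p = 0.0448) and in the fit of all 30 libraries (edgeR adjusted p = 0.0225), and without sham or MI replicate 3. At day 4 it was higher without the lung-bearing libraries, by 1.19 (edgeR adjusted p = 0.0105), and at day 2 with the replicate block (edgeR adjusted p = 0.000963) and without sham replicate 3, by 0.78. Ifi44 was higher at day 4 without MI replicate 4, by 0.70, and Ifi35 without the lung-bearing libraries, by 0.33 (edgeR adjusted p = 0.0272). Ifi27l2a had the widest spread of the 3, from 44.1 to 210.3 normalised CPM within the MI libraries of day 7.

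**Figure D3:**
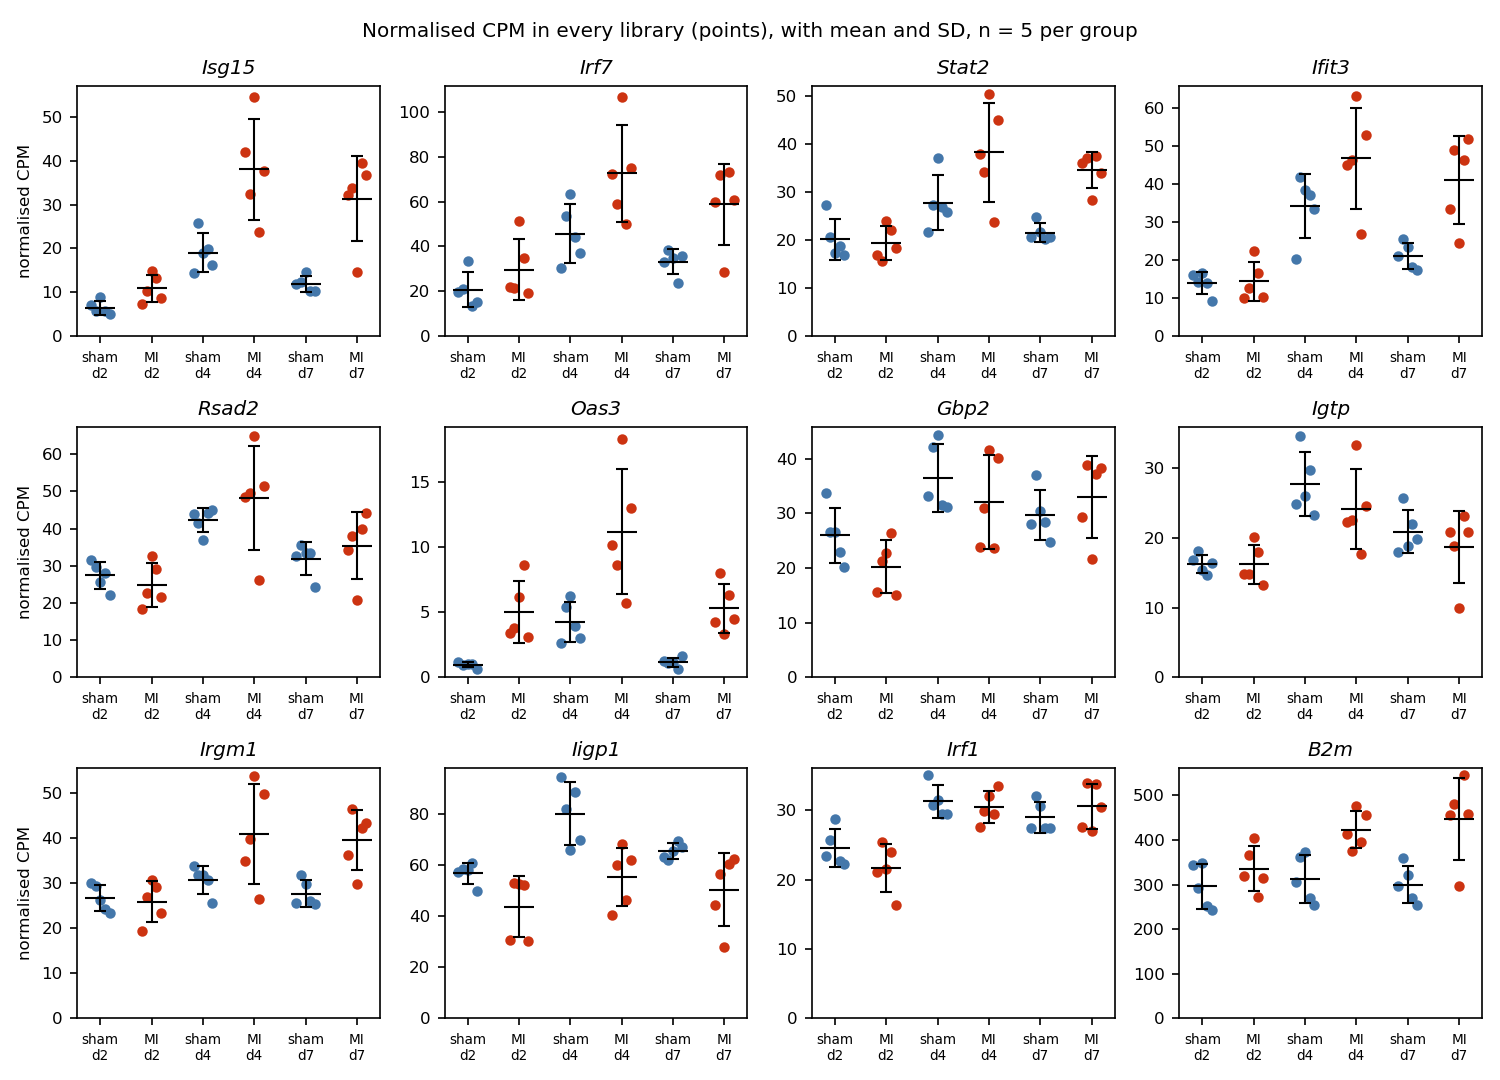
Normalised CPM (vertical axes, from 0) of 12 members in each of the 30 libraries, by group, where d2, d4 and d7 are days, blue is sham and red is MI. Black lines show the mean and SD of the 5 libraries of a group. MI points of Isg15, Irf7, Stat2 and B2m sit mostly above the sham points of days 4 and 7, those of Gbp2, Igtp and Irf1 overlap them, and those of Iigp1 are mostly below.

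Of the 6 interferon-gamma GTPases, 0, 1 and 1 were higher at days 2, 4 and 7, where 24.1%, 27.5% and 28.4% of all genes were. At day 4, 1 was lower, where 25.2% of genes were. With 6 genes, these counts are too few to set apart from the shares of all genes. Irgm1 was the one higher at days 4 and 7, and Iigp1 the one lower at day 4. By edgeR at an unadjusted p under 0.05, 0 were higher and 2 lower at day 2, and DESeq2 called 1 lower. Gbp2, a guanylate-binding protein recruited to pathogen vacuoles, measured 33.7, 26.5, 26.5, 22.8 and 20.1 in sham and 15.7, 21.3, 22.8, 26.4 and 15.01 in MI hearts at day 2. At day 4, Gbp2 measured 33.2, 42.1, 44.3, 31.5 and 31.1 in sham and 23.8, 31.04, 41.5, 23.7 and 40.2 in MI hearts. At day 7, Gbp2 measured 27.97, 37.02, 30.4, 28.4 and 24.8 in sham and 29.3, 38.8, 21.5, 37.2 and 38.3 in MI hearts. MI and sham ranges overlapped at each day. For Gbp2, the log2 fold change was -0.36 ± 0.16 (SE, edgeR adjusted p = 0.0857), -0.20 ± 0.17 (adjusted p = 0.341) and 0.15 ± 0.16 (adjusted p = 0.44). Of its neighbours on chromosome 3, Gbp3 gave -0.31 ± 0.16 (SE, edgeR adjusted p = 0.135), 0.21 ± 0.14 (adjusted p = 0.235) and 0.21 ± 0.21 (adjusted p = 0.408). Gbp7 gave -0.17 ± 0.14 (SE, edgeR adjusted p = 0.343), -0.02 ± 0.20 (adjusted p = 0.941) and 0.05 ± 0.13 (adjusted p = 0.795). Gbp3 was called higher at day 4 without MI replicate 4 (0.31) and at day 7 without MI replicate 3 (0.37), and lower at day 2 without MI replicate 3 (-0.43). Gbp2 was called lower at day 2 without sham replicate 5 or MI replicate 4.

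Igtp (Irgm3), an immunity-related GTPase of the regulatory class, had levels of 16.9, 18.1, 15.4, 14.6 and 16.4 in sham and 14.9, 14.8, 20.2, 17.99 and 13.3 in MI hearts at day 2. At day 4, Igtp measured 24.9, 34.7, 26, 29.7 and 23.3 in sham and 22.2, 22.5, 33.4, 17.7 and 24.6 in MI hearts. At day 7, Igtp measured 18.01, 25.8, 18.9, 22.05 and 19.9 in sham and 20.9, 18.8, 9.93, 23.1 and 20.9 in MI hearts. The ranges overlapped at every day, and the lowest value of day 7 was MI replicate 3. For Igtp, the log2 fold change was -0.01 ± 0.12 (SE, edgeR adjusted p = 0.932), -0.22 ± 0.15 (adjusted p = 0.245) and -0.16 ± 0.20 (adjusted p = 0.52), and the day 4 value was called lower without MI replicate 3 (-0.36). Its exons overlap those of Irgm2 on the same strand over 8.01% of their length, so reads there cannot be assigned to 1 of them.

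Irgm1, the regulatory GTPase linked to autophagy, was the GTPase that rose. At day 2, Irgm1 measured 29.9, 29.3, 26.1, 24.3 and 23.4 in sham and 19.3, 26.9, 30.6, 29.2 and 23.3 in MI hearts. At day 4, Irgm1 measured 33.7, 31.7, 31.8, 30.7 and 25.5 in sham and 34.8, 39.7, 53.7, 26.4 and 49.7 in MI hearts. At day 7, Irgm1 measured 25.5, 31.6, 29.8, 25.9 and 25.3 in sham and 36.2, 46.3, 29.8, 42.2 and 43.2 in MI hearts. MI replicate 4 of day 4 and MI replicate 3 of day 7 lay in the sham range and the other 4 MI libraries of each day above it. For Irgm1, the log2 fold change was -0.05 ± 0.12 (SE, edgeR adjusted p = 0.759), 0.40 ± 0.16 (adjusted p = 0.0489) and 0.52 ± 0.12 (adjusted p = 0.00319). The day 4 call was lost under 5 other settings, among them DESeq2 (adjusted p = 0.0505) and leaving out the lung-bearing libraries (edgeR adjusted p = 0.103). It was also lost in 8 of 10 fits that left out 1 library (edgeR adjusted p up to 0.133). The call of day 7 held throughout.

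Iigp1 (Irga6), an effector GTPase that coats and breaks vacuoles, was the member with the lowest fold change at days 4 and 7. At day 2, Iigp1 measured 57.2, 58.3, 58.1, 60.5 and 49.7 in sham and 30.7, 52.9, 52.6, 51.9 and 30.3 in MI hearts. At day 4, Iigp1 measured 94.5, 81.8, 65.6, 88.3 and 69.7 in sham and 40.6, 59.8, 68.02, 46.4 and 61.7 in MI hearts. At day 7, Iigp1 measured 62.9, 61.8, 65.2, 69.4 and 66.9 in sham and 44.4, 56.3, 27.9, 60.4 and 62.3 in MI hearts. At day 4 MI replicate 3 alone overlapped the sham range, and at the other days 3 and 1 MI libraries did. For Iigp1, the log2 fold change was -0.38 ± 0.15 (SE, edgeR adjusted p = 0.0555), -0.55 ± 0.14 (adjusted p = 0.00368) and -0.37 ± 0.18 (adjusted p = 0.0876). DESeq2 also called it lower at day 2 (adjusted p = 0.0384), and edgeR did at day 7 without MI replicate 5 (-0.47).

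Irf1 is the transcription factor that interferon-gamma induces first, and it was not called at any day by edgeR or DESeq2. At day 2, Irf1 measured 23.5, 25.7, 28.8, 22.8 and 22.2 in sham and 21.1, 25.5, 21.5, 23.99 and 16.4 in MI hearts. At day 4, Irf1 measured 35.2, 30.8, 31.5, 29.5 and 29.4 in sham and 27.7, 29.9, 32.04, 29.5 and 33.6 in MI hearts. At day 7, Irf1 measured 27.4, 32.1, 30.6, 27.5 and 27.5 in sham and 27.7, 33.9, 27.04, 33.7 and 30.4 in MI hearts. The 2 groups overlapped at each day. For Irf1, the log2 fold change was -0.19 ± 0.11 (SE, edgeR adjusted p = 0.197), -0.05 ± 0.08 (adjusted p = 0.632) and 0.08 ± 0.10 (adjusted p = 0.522). With library totals the day 7 value passed, at 0.27 (edgeR adjusted p = 0.0402).

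Tap1, the peptide transporter of class I presentation, had levels of 14.5, 14.5, 10.01, 9.47 and 8.18 in sham and 9.95, 15.03, 18.3, 21.6 and 9.97 in MI hearts at day 2. At day 4, Tap1 measured 19.4, 19.1, 26.9, 19.6 and 16.4 in sham and 28.9, 24.8, 39.5, 20.2 and 37.99 in MI hearts. At day 7, Tap1 measured 16.6, 19.3, 16.8, 14.5 and 12.7 in sham and 21.3, 31.7, 22.5, 31.5 and 24.1 in MI hearts. Only day 7 separated the groups. For Tap1, the log2 fold change was 0.40 ± 0.23 (SE, edgeR adjusted p = 0.178), 0.56 ± 0.18 (adjusted p = 0.0202) and 0.71 ± 0.14 (adjusted p = 0.000911). Psmb9 overlaps 3.87% of its exons on the other strand.

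B2m, the invariant light chain of class I molecules, ranked first among the members in level per kilobase in every group. At day 2, B2m measured 345, 292, 348, 252 and 243 in sham and 319, 366, 404, 273 and 316 in MI hearts. At day 4, B2m measured 307, 363, 374, 269 and 253 in sham and 413, 376, 476, 396 and 456 in MI hearts. At day 7, B2m measured 296, 359.6, 322, 269 and 254 in sham and 456, 480.3, 296, 546 and 459 in MI hearts. The groups were separate at day 4, and at day 7 MI replicate 3 alone lay within the sham range. For B2m, the log2 fold change was 0.17 ± 0.12 (SE, edgeR adjusted p = 0.266), 0.42 ± 0.12 (adjusted p = 0.00817) and 0.58 ± 0.15 (adjusted p = 0.00581).

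Set side by side, the type I targets had a median log2 fold change of 0.29, 0.59 and 0.80 at days 2, 4 and 7, and the GTPases one of -0.24, -0.11 and 0.10. With 9, 19 and 26 of 32 type I targets called higher, the GTPases had 0, 1 and 1 of 6. Over all genes tested the shares were 24.1%, 27.5% and 28.4%, and the type I share of day 2 lay near the first of these. The GTPase median of day 4 turned to 0.0062 without MI day 4 replicate 4 and to 0.07 with library totals in place of TMM factors, a scaling that moved the median of all genes by 0.18 at day 4 and 0.20 at day 7. Without the lung-bearing libraries, the medians at days 4 and 7 were 0.68 and 0.86 for the type I targets and -0.04 and 0.09 for the GTPases. Neither list was tested as a whole, and nothing here is particular to a list by a test.

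The same contrast can be read within each library, as the median log2(normalised CPM + 1) of the type I targets minus that of the GTPases. At day 2 this difference lay between -0.89 and -0.72 in sham libraries and between -0.72 and -0.43 in MI libraries. The sham libraries of day 4 lay between -0.99 and -0.50, the MI libraries between -0.39 and -0.09. For day 7 the sham range was -0.95 to -0.67 and the MI range -0.56 to -0.27. The MI libraries lay above the sham libraries at days 4 and 7 without overlap, MI day 4 replicate 4 and MI day 7 replicate 3 included, although these had the lowest type I medians of their groups, 4.37 and 4.08. The GTPase median itself overlapped between MI and sham at each day, which at day 4 was 4.93 to 5.19 for sham and 4.63 to 5.67 for MI libraries.

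**Figure D4:**
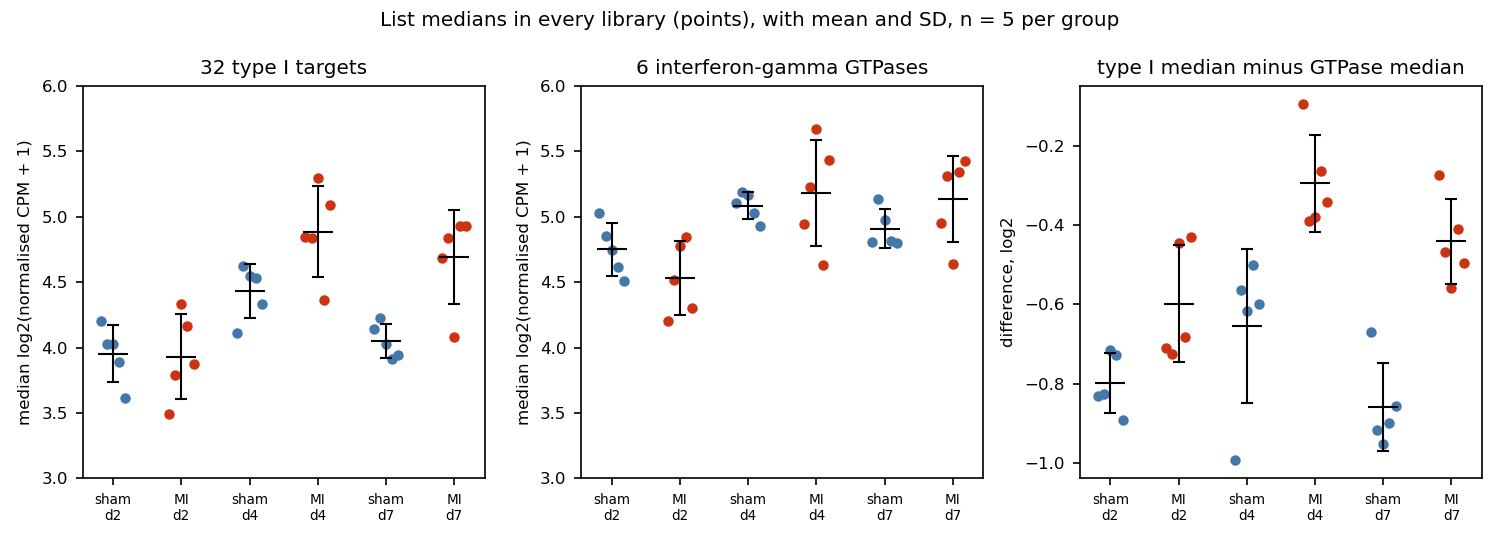
Median log2(normalised CPM + 1) over the 32 type I targets (left) and the 6 interferon-gamma GTPases (middle), and the difference between them (right), in each of the 30 libraries by group. Points are libraries, blue for sham and red for MI, and black lines show the mean and SD of 5. The differences of MI and sham libraries do not overlap at days 4 and 7.

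Whether the MI effect itself changed with time was tested in a fit of all 30 libraries. Between days 2 and 4, 0 of 41 members were called (2.51% of 15537 genes tested changed upward and 2.29% downward). By edgeR 8 members had a larger and 1 a smaller effect at an unadjusted p under 0.05, and DESeq2 called 0. Between days 4 and 7 no member was called (0.702% upward and 0.315% downward), with 0 at an unadjusted p under 0.05 and 0 by DESeq2. From day 2 to day 7 the effect was larger for 6 members and smaller for 0, against 10.1% and 9.11% of genes. The 6 were Stat2 at 0.77 ± 0.23 (SE, edgeR adjusted p = 0.0181), Ifih1 at 0.72 ± 0.23 (adjusted p = 0.0304), Ifit1 at 0.95 ± 0.33 (adjusted p = 0.0457), Ifit3 at 0.95 ± 0.34 (adjusted p = 0.0475), Parp14 at 0.73 ± 0.25 (adjusted p = 0.0411) and Irgm1 at 0.59 ± 0.21 (adjusted p = 0.0423). Their number fell to 0 without the lung-bearing libraries and without sham day 2 replicate 1, and it was 14 without MI day 7 replicate 3. With library totals in place of TMM factors, all genes split into 497 larger and 238 smaller effects between days 2 and 4, 66 and 51 between days 4 and 7, and 1909 and 1002 between days 2 and 7. Isg15, with the larger fold at day 7, gave 0.67 ± 0.34 (SE, edgeR adjusted p = 0.172) for the change, and Mx1 gave 0.20 ± 0.49 (adjusted p = 0.818). Day 2 enters this comparison, so the leading code of the descriptions applies to it too.

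The controls moved as well. In sham hearts, 28 of 41 members were higher at day 4 than at day 2 and 0 lower, against 11.7% of 15537 genes higher and 12.7% lower. No member was lower at an unadjusted p under 0.05 or by DESeq2. The 28 were 22 of 32 type I targets (Irf7, Stat2, Usp18, Ifih1, Dhx58, Isg15, Ifit1, Ifit2, Ifit3, Ifit3b, Mx1, Mx2, Oas1a, Oas3, Oasl1, Oasl2, Rsad2, Rtp4, Zbp1, Ifi35, Bst2 and Eif2ak2), 4 of 6 GTPases (Gbp2, Gbp3, Igtp and Iigp1), Irf1 and Tap1. The median was 0.67 for the type I targets and 0.51 for the GTPases. Calls held under every alternative and with each library left out for 13 of the 28. Values of 14 members did not overlap between the 2 sham groups, against 6.35% of genes, and 0 lay wholly lower, against 10.6%. The same sham libraries are the baseline of the MI comparisons above, so these are not separate lines of evidence.

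Mx1 had the highest fold change between these groups, 2.19 ± 0.34 (SE, edgeR adjusted p = 1.24e-05). Its levels ran from 0.376 to 0.944 normalised CPM at day 2, on 4 to 10 counts per library, and from 0.885 to 3.91 at day 4. Isg15 rose by 1.57 ± 0.25 (SE, edgeR adjusted p = 1.84e-05), and all its day 4 values, 14.5 to 25.8, lay above those of day 2, 5.08 to 8.97. Ifit3 rose by 1.30 ± 0.24 (SE, edgeR adjusted p = 0.000179), Oas3 by 2.12 ± 0.36 (adjusted p = 4.94e-05) and Igtp by 0.78 ± 0.17 (adjusted p = 0.00104), each without overlap. Sham day 4 replicate 1 was the lowest sham day 4 library for Mx1, Isg15, Ifit3, Dhx58, Zbp1 and Irf7. B2m had the lowest value, 0.10 ± 0.14 (SE, edgeR adjusted p = 0.651). Rsad2, which was not called between MI and sham, rose between the sham groups by 0.64 ± 0.19 (SE, edgeR adjusted p = 0.0113), and Irf1 by 0.36 ± 0.10 (adjusted p = 0.00574).

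Between sham days 4 and 7, 1 member was called: Oas3, at -1.86 ± 0.37 (SE, edgeR adjusted p = 0.0268), against 0.0515% of genes higher and 0.0708% lower. All 41 members nonetheless had a negative value, with a median of -0.36, and 18 were lower at an unadjusted p under 0.05. Values of 3 members lay wholly lower at day 7 (1.30% of genes) and 0 wholly higher (1.45%). The highest value was that of Ifi35, -0.04 ± 0.11 (SE, edgeR adjusted p = 0.932), whose levels were 17.04, 24.8, 22.7, 21.4 and 19.5 at day 4 and 18.01, 19.5, 24.98, 23.8 and 16.8 at day 7. The Oas3 call was lost with the replicate block (edgeR adjusted p = 0.0516) and without the lung-bearing libraries. DESeq2 gave an adjusted p for 30 members, Oas3 not among them, and called 0 in either direction. Between sham days 2 and 7, 5 members were higher and 0 lower, against 9.57% and 11.5% of genes: Isg15 by 0.89 ± 0.25 (SE, edgeR adjusted p = 0.0114), Mx1 by 1.30 ± 0.37 (adjusted p = 0.0108), Bst2 by 0.69 ± 0.19 (adjusted p = 0.0108), Ifi35 by 0.32 ± 0.11 (adjusted p = 0.0446) and Gbp3 by 0.55 ± 0.19 (adjusted p = 0.0406). No member was lower at an unadjusted p under 0.05 or by DESeq2, and 6 lay wholly higher, against 6.64% of genes. The lowest value was that of Oas2, -0.20 ± 0.23 (SE, edgeR adjusted p = 0.576), with levels of 17.9, 11.7, 12.9, 10.7 and 12.2 at day 2 and 10.7, 12.3, 11.3, 9.902 and 12.2 at day 7.

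Transcripts of other tissues and cells also varied among the sham libraries. Without the lung-bearing libraries, 13 members were higher at day 4 than at day 2, and 0 were higher at day 7. The day 4 medians were then 0.52 for the type I targets and 0.50 for the GTPases, against 0.67 and 0.51. Calls over all genes fell as well: 991 of 16079 were higher at day 4, in place of 1819 of 15537. At day 7, 575 were higher, in place of 1487. Smaller groups and absent lung tissue cannot be told apart here. In sham libraries the lung pair summed to 0 to 1.02 normalised CPM at day 2, 0 to 401 at day 4 and 0.132 to 392 at day 7. The medians of these sums were 0.0944, 0.109 and 244.8. The 3 adipocyte markers, all called higher at day 4, summed to 2.15 to 6.12 and then 4.42 to 207. Of the B cell markers 3 of 4 were called higher at day 4, with sums of 1.60 to 2.69 and 1.33 to 28.3. Median sums at days 2 and 4 were 2.92 and 14.3 for the adipocyte and 1.83 and 2.68 for the B cell markers. Of the pan-leukocyte markers 1 of 3, and of the pan-macrophage markers 2 of 6, were called higher. Their median sums at days 2 and 4 were 94.3 and 98.6 for the pan-leukocyte and 207 and 223 for the pan-macrophage markers. The part of these cells and tissues in the sham changes was not tested, and leaving out the lung-bearing libraries also made the groups smaller.

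**Figure D5:**
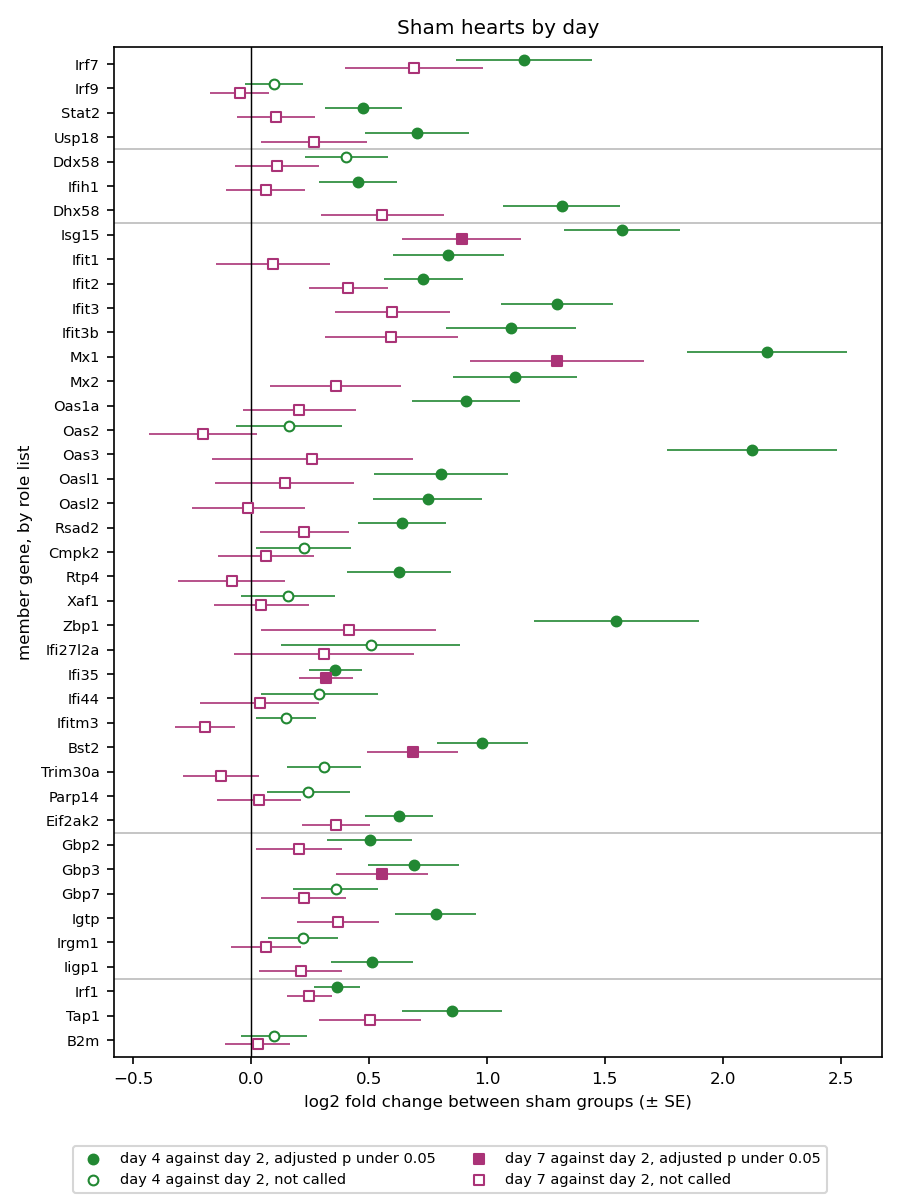
Log2 fold change (horizontal axis, bars ± SE) of each of the 41 members between sham hearts, for day 4 against day 2 (green circles) and day 7 against day 2 (purple squares), with 5 libraries per group. Filled symbols passed an adjusted p of 0.05, 28 at day 4 and 5 at day 7. All green circles lie to the right of 0.

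Of 21 interferon ligand genes, 16 had no count in any library, and the other 5 shared 28 counts over all 30 libraries, with at most 4 for a gene in a library. Ifnb1, the first type I interferon made, had 2 counts in all, 1 each in MI day 2 replicate 3 and MI day 7 replicate 4. Ifng, the gene of interferon-gamma, the main inducer of the GTPases, had 2 as well, in MI day 2 replicate 1 and sham day 4 replicate 4. No ligand could be tested, and a difference between MI and sham was not detectable at this depth.

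Of 11 receptors, Jaks and Stats, 1, 5 and 4 were higher and 3, 2 and 3 lower at days 2, 4 and 7. Over all genes tested, 24.1%, 27.5% and 28.4% were higher and 22.2%, 25.2% and 26.6% lower, and the counts of this list lay on both sides of those shares. The type I receptor chain Ifnar1 rose by 0.31 ± 0.09 (SE, edgeR adjusted p = 0.0088), 0.75 ± 0.08 (adjusted p = 2.32e-06) and 0.72 ± 0.10 (adjusted p = 4.09e-05). Its partner Ifnar2 gave 0.07 ± 0.10 (SE, edgeR adjusted p = 0.607) at day 2 and rose by 0.47 ± 0.08 (adjusted p = 0.000175) and 0.47 ± 0.08 (adjusted p = 0.000413) at the later days. Of the interferon-gamma receptor, Ifngr1 gave 0.13 ± 0.08 (SE, edgeR adjusted p = 0.201) and then rose by 0.33 ± 0.09 (adjusted p = 0.00712) and 0.68 ± 0.08 (adjusted p = 1.19e-05). Ifngr2 was lower at each day, with -0.33 ± 0.09 (SE, edgeR adjusted p = 0.0087), -0.46 ± 0.10 (adjusted p = 0.0013) and -0.91 ± 0.15 (adjusted p = 0.000166). Il10rb, a chain shared with the interferon-lambda receptor, was also lower, with -0.47 ± 0.09 (SE, edgeR adjusted p = 0.000469), -0.47 ± 0.10 (adjusted p = 0.0017) and -0.69 ± 0.09 (adjusted p = 4.61e-05).

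Among 9 inhibitors, of which 8 were tested and Trex1 had no count, 4, 5 and 4 were higher, above the shares of all genes, and 1 lower at each day. Overlaps of Trex1 with other genes were not searched for, so whether it was expressed is uncertain. Ptpn6 (SHP-1), a phosphatase abundant in blood cells, rose by 1.33 ± 0.14 (SE, edgeR adjusted p = 3.29e-06), 1.49 ± 0.16 (adjusted p = 2.98e-06) and 1.73 ± 0.17 (adjusted p = 5.40e-06). Socs3, the feedback inhibitor of gp130 receptors, rose by 1.18 ± 0.14 (SE, edgeR adjusted p = 1.07e-05), 1.68 ± 0.20 (adjusted p = 1.98e-05) and 1.48 ± 0.27 (adjusted p = 0.000492). Samhd1 rose by 0.31 ± 0.09 (SE, edgeR adjusted p = 0.0131), 0.48 ± 0.12 (adjusted p = 0.00276) and 0.54 ± 0.10 (adjusted p = 0.000588).

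Of 14 genes that sense nucleic acids or relay that signal to interferon, 8, 11 and 9 were higher, above the shares of all genes, and 1 was lower at each day. Tlr9, the endosomal DNA receptor, gave 0.52 ± 0.30 (SE, edgeR adjusted p = 0.177) at day 2 and rose by 1.61 ± 0.34 (adjusted p = 0.00108) and 2.67 ± 0.36 (adjusted p = 4.76e-05). Tlr7, its counterpart for single-stranded RNA, rose by 0.79 ± 0.17 (SE, edgeR adjusted p = 0.00145), 1.44 ± 0.16 (adjusted p = 3.73e-06) and 1.65 ± 0.22 (adjusted p = 4.38e-05). Ikbke, a kinase of Irf3 and Irf7, rose by 1.21 ± 0.17 (SE, edgeR adjusted p = 4.43e-05), 1.40 ± 0.21 (adjusted p = 5.29e-05) and 1.56 ± 0.29 (adjusted p = 0.000472). Of 40 further type I targets, 13, 21 and 27 were higher, above the shares of all genes, and 3, 1 and 2 lower, with medians of 0.13, 0.43 and 0.58. Ms4a4c rose by 2.06 ± 0.32 (SE, edgeR adjusted p = 0.000148), 2.19 ± 0.41 (adjusted p = 0.000814) and 2.47 ± 0.36 (adjusted p = 8.42e-05). Ifitm1, of the endosomal fusion blockers, rose at day 2, by 1.90 ± 0.36 (SE, edgeR adjusted p = 0.00118). Slfn9 rose by 0.99 ± 0.24 (SE, edgeR adjusted p = 0.00377), 1.89 ± 0.18 (adjusted p = 9.40e-07) and 1.52 ± 0.21 (adjusted p = 6.05e-05).

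Of 10 further interferon-gamma GTPases 8 were tested, with 0, 1 and 1 higher and 1, 0 and 1 lower. Their medians were -0.18, -0.22 and -0.19. The counts lay below the shares of all genes, but 8 genes are too few to set them apart from those shares. Ifi47 rose at days 4 and 7, by 0.60 ± 0.21 (SE, edgeR adjusted p = 0.0277) and 0.87 ± 0.17 (adjusted p = 0.000738). Gbp2b was lower at day 2, with -0.68 ± 0.20 (SE, edgeR adjusted p = 0.0132), and Gbp4 at day 7, with -0.36 ± 0.14 (adjusted p = 0.0466). Of 22 further presentation and interferon-gamma targets 20 were tested, with 2, 4 and 8 higher, below the share of all genes at days 2 and 4 and above it at day 7, and 3, 3 and 2 lower. Cxcl10, a chemokine for T cells that both interferons induce, rose by 1.59 ± 0.37 (SE, edgeR adjusted p = 0.00313), 2.41 ± 0.35 (adjusted p = 9.09e-05) and 2.22 ± 0.39 (adjusted p = 0.000332). Ciita, the master regulator of class II genes, rose at day 7, by 1.26 ± 0.23 (SE, edgeR adjusted p = 0.000403), and the immunoproteasome subunit Psmb8 rose by 0.42 ± 0.11 (adjusted p = 0.00505), 0.60 ± 0.12 (adjusted p = 0.000846) and 0.78 ± 0.15 (adjusted p = 0.000631).

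Many cell markers also differed between MI and sham hearts. The 3 pan-leukocyte markers were higher in MI at each day, and their summed level was 72.1 to 129 normalised CPM in sham and 179 to 248 in MI at day 2. The sum was 92.0 to 158 against 271 to 366 at day 4 and 66.1 to 120.5 against 187 to 366 at day 7. The macrophage sum over 6 markers, of which 4, 6 and 6 were higher, was 146 to 263 against 293 to 377 at day 2, 212 to 343 against 552 to 729 at day 4, and 168 to 247 against 336 to 749 at day 7. Of 7 neutrophil markers, 7 of 7 tested were higher at day 2, 6 of 6 at day 4 and 3 of 4 at day 7. Their sums were 12.2 to 23.5 against 223 to 774 at day 2, 7.21 to 17.5 against 42.4 to 261 at day 4, and 3.66 to 16.9 against 19.7 to 250.4 at day 7. The 4 inflammatory monocyte markers were higher at each day, with sums of 19.7 to 50.5 against 153 to 223, 16.04 to 55.2 against 110 to 202, and 8.98 to 40.5 against 60.7 to 288. Fibroblast markers were 0, 2 and 4 of 4 higher and 1, 1 and 0 lower, and at day 7 summed to 1024 to 1636 in sham and 2839 to 6410 in MI. B cell markers could be tested at days 4 and 7, when 0 and 3 of 4 were higher, with day 7 sums of 1.06 to 12.1 against 5.79 to 50.9. Resident macrophage markers were 0, 0 and 1 of 4 higher and 0, 1 and 0 lower. Cardiomyocyte markers were lower for 3, 5 and 5 of 5. T and NK cells are the usual source of interferon-gamma, and their 12 markers summed to 2.41 to 4.34 normalised CPM in sham and 2.23 to 4.78 in MI at day 2. The T and NK sum was 3.54 to 6.56 against 4.64 to 15.1 at day 4, and 3.93 to 6.96 against 8.02 to 14.5 at day 7, where the groups did not overlap. Cd3d, Cd8a and Gzmb of the 12 lay wholly higher in MI at day 7, where 20.0% of all genes tested did. These 3 were too low to be tested, with 135, 153 and 81 counts over all 30 libraries. Of the markers tested, Cd4 had an edgeR adjusted p of 0.712 at day 4 and 0.0917 at day 7, and Trac one of 0.971 at day 7. Plasmacytoid dendritic cell markers, of 3 genes, summed to at most 9.02. The part of these cells in the members' values was not tested.

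Levels per kilobase of exon spanned a wide range. In sham hearts of day 2 B2m stood at 344 ± 57.9 normalised CPM per kb (SD, n = 5), Ifitm3 at 184 ± 29.96, Ifi27l2a at 108 ± 50.9 and Bst2 at 28.3 ± 5.91. Next came Gbp2 at 10.3 ± 2.03, Iigp1 at 9.74 ± 0.711, Ifi35 at 9.63 ± 0.892 and Isg15 at 8.59 ± 2.06, which did not differ beyond their spread. At the low end were Mx2 at 0.440 ± 0.0732, Mx1 at 0.161 ± 0.0686 and Oas3 at 0.138 ± 0.0283. In MI hearts of day 7 Isg15 stood at 41.4 ± 12.9 per kb, Gbp2 at 13.1 ± 2.98 and Iigp1 at 8.63 ± 2.45. Oas3 was then still last, at 0.748 ± 0.263 per kb.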

How the data were processed

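Bulk RNA-seq counts were analysed for 30 mouse heart libraries, 5 in each of 6 groups. Per the labels' protocols, libraries were made with a directional NEBNext Ultra II kit and sequenced as paired ends. Per the submitters' processing notes, bcl2fastq 2.20.0 and featureCounts were used with GRCm38. The deposited files hold the authors' raw count per Ensembl gene. Which aligner was used, the featureCounts version and whether counting used strand: not given in the sources used here.

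Symbols came from the reference annotation of the same build, which named 97.5% of identifiers, and Mnda, Gbp5, Gbp6 and Gbp10 were not matched. MI and sham were compared with edgeR 4.0.16 (R 4.3.3) in the 10 libraries of each day, by the quasi-likelihood test after filterByExpr (minimum count 10, minimum total 15) and TMM scaling. Changes of the MI effect between days, and sham days, were tested in 1 fit of all 30 libraries. P-values were adjusted by Benjamini and Hochberg over all genes tested, with a threshold of 0.05. Library medians used log2(normalised CPM + 1). Transcripts were compared with blastn 2.17.0. Tested on simulated data with 200 genes changed 2-fold, the fits recovered 82.5% at day 2, 75.5% at day 4 and 78.5% at day 7, but 24.5% of changes of effect between days 2 and 7.

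The members and lists were chosen with earlier results of these data known. Values in every library are given for 18 members set by role and for the members of highest and lowest fold change in each comparison. From each pathway list up to 3 called genes of largest change with a mean of at least 1 CPM are named, besides Ifnb1, Ifng and the receptor chains, and 1 further gene set by the rule is not reported here. Alternatives were median-ratio size factors, no filter on low counts, DESeq2 1.42.0, a replicate block, the fit of all 30 libraries, leaving out lung-bearing libraries and leaving out each library. Library totals without TMM factors were added after seeing the data.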

Additional observations from a re-analysis of the deposited data

Results flagged for a closer look

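In 5 of 120 groups of 5 libraries tested, 1 library stood apart by Dixon's ratio (limit 0.71), where chance gives about 5 of 100. Irf9 in MI day 7 replicate 3 was 24.7 normalised CPM, while the other 4 libraries ran from 35.3 to 39.1. Ifit1 in the same library was 10.8, against 26.0 to 31.7. Usp18 in sham day 7 replicate 3 was 7.86, against 5.28 to 5.96. Rsad2 in sham day 7 replicate 5 was 24.2, against 32.6 to 35.7. Ifih1 in sham day 7 replicate 2 was 17.95, against 14.9 to 15.3.

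By a test of the difference, the effect of MI was larger at day 7 than at day 2 for 6 of 41 members. Over all genes tested, 10.1% changed upward. Parp14 was 1 of the 6, and the other 5, whose values in every library are printed above, are listed here. The log2 difference was 0.77 for Stat2 (edgeR adjusted p = 0.0181), 0.72 for Ifih1 (edgeR adjusted p = 0.0304) and 0.59 for Irgm1 (edgeR adjusted p = 0.0423). It was 0.95 for Ifit1 (edgeR adjusted p = 0.0457) and 0.95 for Ifit3 (edgeR adjusted p = 0.0475). None of these calls held under every alternative. Libraries of day 2 carry another leading code in the sample descriptions, so day and code cannot be told apart here.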

How the results depend on the processing

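No called result changed direction under any alternative run. Of the medians, which have no test, that of the GTPases at day 4 (-0.11) turned to 0.07 with library totals and 0.0062 without MI day 4 replicate 4, and that of their change between days 2 and 4 (0.17) to -0.0035 without MI day 4 replicate 3. Members lower at day 2 numbered 1, and 2 with median-ratio size factors or no filter on low counts, and 3 with DESeq2 or the replicate block. With library totals without TMM factors, chosen after seeing the data, 15 members were higher at day 2, against 9. Larger effects at day 7 than day 2 numbered 6, and 2 with median-ratio size factors, 1 with no filter and 0 without the lung-bearing libraries. Without those libraries 13 members were higher at sham day 4 than day 2, against 28, and 0 at sham day 7, against 5, which was 3 with no filter. Without those libraries all genes called higher fell too, from 1819 to 991 at sham day 4 and from 1487 to 575 at sham day 7. The 1 member lower between sham days 4 and 7 became 0 with the replicate block and without lung-bearing libraries. DESeq2 gave that member no adjusted p and called 0. Leaving out each library gave 9 to 14 higher (14 without MI day 2 replicate 1) and 1 to 5 lower (5 without MI day 2 replicate 3) at day 2, and 14 to 32 higher and 1 to 2 lower at day 4. The 14 arose without sham replicate 5, MI replicate 3 or MI replicate 5. At day 7 it gave 26 to 33 higher and 0 to 1 lower, between days 2 and 4 an effect larger for 0 to 2, and between days 2 and 7 for 0 to 14. Between sham days it gave 21 to 29 higher at day 4, 0 to 1 lower from day 4 to 7, and 3 to 6 higher from day 2 to 7. Counts also moved by over 1.5 times for members lower at day 2 without sham replicates 2 or 5 or MI replicates 2 or 4, lower at day 4 without MI replicate 3, lower at day 7 without MI replicate 5, and larger between days 2 and 4 without MI day 4 replicate 4. The count between days 2 and 7 was 14 without MI day 7 replicate 3, 0 without sham day 2 replicate 1, and 1 to 3 without sham day 2 replicates 2 or 4, MI day 2 replicates 1, 2 or 5, MI day 4 replicates 1 or 2, sham day 7 replicates 4 or 5, or MI day 7 replicates 2, 4 or 5. Oas3 was not called between sham days 4 and 7 without sham day 4 replicates 2, 3 or 4 or sham day 7 replicates 1, 2, 3 or 4. From sham day 2 to 7 the count was 3 without sham day 2 replicates 2, 4 or 5 or sham day 7 replicates 2 or 3. The cause was not tested. With the replicate block 12, 25 and 27 members were higher at days 2, 4 and 7, but same-numbered libraries correlated at -0.192 to 0.23, so they share only a number.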

Other observations

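Of the 20 further presentation and interferon-gamma targets tested, 11 were higher and 1 lower at sham day 4 than at day 2, against 11.7% and 12.7% of all genes. At sham day 7, 12 were higher and 1 lower than at day 2, against 9.57% and 11.5%. The genes named here were chosen after their values were seen. H2-K1 rose by 1.09 ± 0.16 (SE, edgeR adjusted p = 6.51e-06) at day 4 and 0.93 ± 0.16 (adjusted p = 7.14e-05) at day 7, each against day 2. H2-T23, a nonclassical class I gene, rose by 1.19 ± 0.14 (SE, edgeR adjusted p = 6.46e-08) and 0.93 ± 0.14 (adjusted p = 5.50e-06). H2-Q7 rose by 1.58 ± 0.28 (SE, edgeR adjusted p = 0.000131) and 1.60 ± 0.28 (adjusted p = 0.000123), though the H2-Q genes are near copies and their counts are uncertain. Of the class I members, B2m gave 0.10 ± 0.14 (SE, edgeR adjusted p = 0.651) and 0.03 ± 0.14 (adjusted p = 0.911), and Tap1 rose at day 4, by 0.85 ± 0.21 (adjusted p = 0.00369), and gave 0.50 ± 0.22 (adjusted p = 0.0962) at day 7. Psme2, a proteasome activator subunit, was lower, with -1.51 ± 0.17 (SE, edgeR adjusted p = 5.22e-08) and -1.43 ± 0.17 (adjusted p = 1.55e-07). Psme2 had 1665 counts over all libraries and Psme1 39235. Near copies of Psme2 were not searched for, so its counts are uncertain. The sham comparisons of this paragraph coincide with the change of leading code in the sample descriptions, and day and code cannot be told apart. The lung-bearing sham libraries were also all of days 4 and 7, and values without them are not given for these genes.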
